A study of Fukomys damarensis and Heterocephalus glaber and Cavia porcellus with 28 samples.

Results

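The transcripts of 8 genes that encode presenilin 2, other subunits of gamma-secretase, the amyloid precursor protein and its first proteases were compared across species in heart and liver. The genes were Psen2, Ncstn, Aph1a, Psenen, App, Bace1, Bace2 and Adam10, chosen by symbol, and all 8 were found among the 13928 genes of both tables. They were gathered around Psen2, whose liver level was already known to differ between the mole-rats and the outgroups. The liver levels of Psen2 in a mole-rat against an outgroup are therefore given as a description, with no test.

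Ribosomal-RNA-depleted total RNA was sequenced from the naked mole-rat (Heterocephalus glaber) and the Damaraland mole-rat (Fukomys damarensis), both subterranean African rodents, and from the guinea pig (Cavia porcellus) and the mouse (Mus musculus) as outgroups. Heart came from 3 naked mole-rats aged 13 to 17 months, 5 Damaraland mole-rats aged 36 to 48 months, 3 guinea pigs aged 2.3 months and 3 mice aged 2 months. Liver came from 4, 5, 3 and 2 animals of the same ages, and 10 of the 18 animals gave both tissues (1 Damaraland animal is labelled 48 months for heart and 36 for liver). No treatment or strain is named, and all animals were male but the donor of Damaraland liver replicate 4. Species, age and gene model cannot be told apart in this design, and within a tissue each library is a separate animal.

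Gamma-secretase is a protease embedded in the membrane. A presenilin, such as the product of Psen2, is its catalytic subunit, and nicastrin (Ncstn), an APH-1 protein (Aph1a) and the presenilin enhancer (Psenen) complete it. APP, a membrane protein made in most tissues, is first cut outside the membrane by beta-secretase (Bace1, with Bace2 as its relative) or alpha-secretase (chiefly Adam10), and gamma-secretase then cuts the remaining stub, which after beta-secretase yields amyloid-beta. The same complex cuts Notch receptors and many other stubs.

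The deposited values are on a log2-like scale on which 0 reads equal 5.36 in heart and 4.29 in liver. Scaled reads are the reads recovered from these values, divided by the size factor of the library. Any correction for gene length is not given in the sources used here, so levels are not compared between genes. Levels of 1 gene are compared between species, and a difference in gene length between species may be part of such a comparison. A difference was called at an adjusted p under 0.05 (limma, Benjamini-Hochberg over all genes tested) and a size of at least 1, and "mole-rats against outgroups" sets the mean of the mole-rat species against the mean of the outgroup species. Whether the libraries of species overlap was looked at for the members only, and the share of all genes without overlap was not computed. Total reads ran from 4089633 to 26985779 per library in heart, lowest in naked mole-rat replicate 3, and from 11220505 to 21467939 in liver.

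The tissue labels held: by level, the cardiac muscle gene Myh6 stood between ranks 1 and 18 in every heart library, and the hepatocyte gene Alb stood at rank 1 in every liver library. The summed scaled reads of 5 hepatocyte markers in heart were 11670 to 31620 in naked mole-rats, 1677 to 5059 in Damaraland mole-rats, 433.6 to 2124 in guinea pigs and 311.9 to 1111 in mice. All 5 were called higher in heart both in the mole-rats against the outgroups and in the naked against the Damaraland mole-rat. In liver, 4 bile duct markers summed to 2138 to 2980 in naked mole-rats, 118.6 to 423.5 in Damaraland mole-rats, 835.2 to 2048 in guinea pigs and 371.8 to 663 in mice. These markers did not move together. Between naked and Damaraland livers, Epcam was called higher and Spp1 lower in the naked mole-rat. Against guinea pig livers, the naked mole-rat had 1 called higher (Epcam) and 2 lower, led by Krt19. Schwann cell markers in liver summed to 1568 to 3384 in naked and 272.6 to 367.9 in Damaraland mole-rats, and to 148.3 to 256.9 in guinea pigs and 8.258 to 10.15 in mice. Of the 3 Schwann cell markers tested between naked and Damaraland livers, only S100b was called (higher in the naked mole-rat), and their median difference was -0.178. In heart the same markers summed to 511.1 to 874.2 in naked and 1399 to 3269 in Damaraland mole-rats. They summed there to 327.2 to 604.3 in guinea pigs and 39.31 to 56.4 in mice. No marker of these lists was at 0 in every library of a species. The part of these other cell types in the differences below was not tested, and in bulk tissue fewer cells of a type and less RNA per cell cannot be told apart.

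Psen2 (ENSMUSG00000010609) was more spread between species in liver than in heart. Its deposited values there were 7.60, 7.56, 7.02 and 7.57 in the naked mole-rat and 9.80, 9.27, 9.33, 9.31 and 9.38 in the Damaraland mole-rat. They were 12.97, 13.36 and 13.37 in the guinea pig and 11.42 and 11.19 in the mouse. The species thus stood in the order naked mole-rat, Damaraland mole-rat, mouse and guinea pig, and no library of a species overlapped another species. Mean scaled reads were 139 in the naked mole-rat, 653 in the Damaraland mole-rat, 2506 in the mouse and 9663 in the guinea pig. The guinea pig mean was 69.5 times and the mouse mean 18.01 times that of the naked mole-rat, and they were 14.8 and 3.84 times that of the Damaraland mole-rat. As a description, the mole-rats lay 3.84 below the outgroups on the deposited scale.

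Among the liver comparisons of Psen2 that were tested, the naked mole-rat was lower than the Damaraland mole-rat by a difference of -1.98 (SE 0.16, adjusted p = 7.43e-09, limma), a ratio of 4.69 in mean scaled reads. Guinea pig liver was higher than mouse liver by 1.92 (SE 0.22, adjusted p = 8.13e-07). Psen2 was therefore spread within both the mole-rat pair and the outgroup pair, not only between the pairs.

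In heart the order was another. Psen2 had deposited values of 9.12, 9.20 and 9.08 in the naked mole-rat, 9.07, 9.66, 9.27, 8.95 and 9.82 in the Damaraland mole-rat and 9.39, 9.82 and 9.82 in the guinea pig. The mouse hearts were lower, at 7.97, 7.97 and 8.22. Naked and Damaraland hearts overlapped, as did Damaraland and guinea pig hearts, and all mouse hearts lay below the other species. All naked mole-rat hearts lay below all guinea pig hearts (difference -0.54, SE 0.21, adjusted p = 0.0367, limma), which was not called. The mole-rats against the outgroups were at 0.38 in heart (SE 0.14, adjusted p = 0.0256), also not called. The mouse was lower than the naked mole-rat (difference 1.08, SE 0.21, adjusted p = 0.000288), than the Damaraland mole-rat (1.31, SE 0.19, adjusted p = 1.36e-05) and than the guinea pig (1.62, SE 0.21, adjusted p = 5.86e-06). Between naked and Damaraland hearts the difference was -0.22, with a 95% interval from -0.63 to 0.18.

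**Figure D1:**
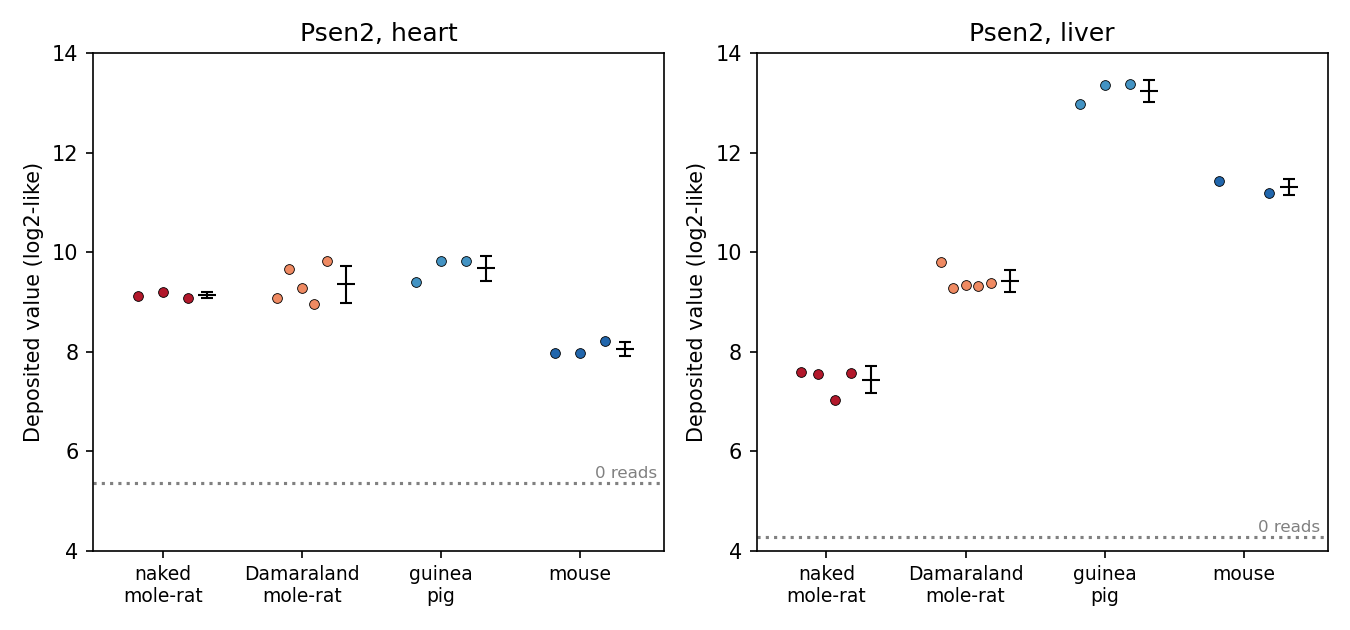
Deposited log2-like values of Psen2 in each heart library (left) and each liver library (right) of 4 species. Points are libraries, horizontal bars the mean, error bars the SD, and the dotted line the value of 0 reads. In liver the naked mole-rat is lowest (7.02 to 7.60) and the guinea pig highest (12.97 to 13.37), while in heart the mouse is lowest (7.97 to 8.22).

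The difference between the mole-rats in Psen2 was larger in liver than in heart: the liver difference minus the heart difference was -1.76 (SE 0.24, adjusted p = 9.20e-07, limma with the animal as a block). The guinea pig and the mouse were in the same order in both tissues, and the same comparison of tissues gave 0.30 (95% interval -0.32 to 0.92, adjusted p = 0.446). Against the mouse, both mole-rats had more Psen2 in heart, by 1.08 and 1.31, and less in liver, by -3.87 and -1.89. Every library lay on the stated side, and these tissue differences were not tested.

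Nicastrin, the large subunit that admits substrates to the complex, was higher in every mole-rat library than in every outgroup library in both tissues, by amounts too small for a call. How common such a separation is among all genes was not computed. Ncstn (ENSMUSG00000003458) had deposited heart values of 10.22, 10.21 and 10.65 in the naked mole-rat, and the Damaraland hearts were at 10.48, 10.29, 10.59, 10.15 and 10.18. Guinea pig hearts were at 9.73, 9.58 and 9.51, and mouse hearts at 9.68, 9.72 and 9.86. The mole-rats exceeded the outgroups by 0.67 in heart (SE 0.11, adjusted p = 7.00e-05) and by 0.49 in liver (SE 0.12, adjusted p = 0.00148). The mole-rats did not differ detectably from each other (heart 0.02, 95% interval -0.30 to 0.34, and liver 0.05, 95% interval -0.25 to 0.34).

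Liver values of Ncstn were 10.17, 10.18, 10.12 and 10.31 in the naked mole-rat and 10.14, 10.23, 10.11, 10.25 and 10.02 in the Damaraland mole-rat. The guinea pig livers were the most spread, at 9.99, 9.27 and 9.72, and the mouse livers were at 9.80 and 9.61. The groups of mole-rats and outgroups did not overlap, though the lowest Damaraland and the highest guinea pig liver were 10.02 and 9.99.

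Aph1a (ENSMUSG00000015750), the scaffold subunit, was highest in the mouse in both tissues. Heart values were 9.06, 9.21 and 8.71 in the naked mole-rat, 9.14, 9.31, 9.69, 9.19 and 9.39 in the Damaraland mole-rat, 9.47, 9.57 and 9.68 in the guinea pig, and 10.60, 10.72 and 10.55 in the mouse. All mouse hearts lay above all others, while Damaraland hearts overlapped both the naked mole-rat and the guinea pig. The mouse was called higher than the naked mole-rat (difference -1.63, SE 0.17, adjusted p = 4.50e-07), the Damaraland mole-rat (-1.28, SE 0.16, adjusted p = 1.93e-06) and the guinea pig (-1.05, SE 0.17, adjusted p = 6.88e-05), each as the other species minus the mouse. The last of these fell under the size required with quantile normalisation (-0.97) and without guinea pig heart replicate 1 (-0.998). The mole-rats against the outgroups were at -0.93 in heart (SE 0.12, adjusted p = 2.69e-06), not called, and at -1.004 with voom, which was called.

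In liver Aph1a was 9.51, 9.56, 9.56 and 9.59 in the naked mole-rat, 10.01, 9.81, 9.80, 9.91 and 9.48 in the Damaraland mole-rat, 10.02, 9.81 and 10.27 in the guinea pig and 10.62 and 10.78 in the mouse. The mouse livers were again above every other library. Only the naked mole-rat against the mouse was called there (-1.15, SE 0.17, adjusted p = 1.99e-05). The Damaraland mole-rat against the mouse gave -0.90 (SE 0.17, adjusted p = 0.000176), and the guinea pig against the mouse -0.67 (SE 0.18, adjusted p = 0.00503).

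Psenen (ENSMUSG00000036835), the small subunit needed for presenilin to be cleaved into its active form, separated the mole-rats from each other in heart. Its heart values were 8.32, 8.31 and 7.99 in the naked mole-rat and 9.52, 10.43, 10.38, 9.55 and 9.35 in the Damaraland mole-rat. The guinea pig hearts (8.80, 9.07 and 8.80) and the mouse hearts (9.10, 8.99 and 8.89) lay between the mole-rats and overlapped each other. Naked mole-rat hearts were lower than Damaraland hearts by a difference of -1.64 (SE 0.23, adjusted p = 1.03e-05), and mean scaled reads were 220 against 888. The average of the mole-rats did not differ from that of the outgroups (0.08, 95% interval -0.28 to 0.44). Damaraland hearts exceeded guinea pig hearts by 0.95 (SE 0.23, adjusted p = 0.00168), just under the size required. It reached that size with voom on the recovered reads (1.08) and when Damaraland heart replicate 1, 4 or 5 or guinea pig heart replicate 2 was left out (1.03 to 1.08).

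In liver Psenen had values of 8.68, 9.12, 9.44 and 9.07 in the naked mole-rat and 9.80, 9.80, 9.67, 9.79 and 9.43 in the Damaraland mole-rat. Guinea pig livers were at 9.58, 8.74 and 9.22 and mouse livers at 9.08 and 9.16. The mole-rat ranges overlapped slightly, and their difference was -0.62 (SE 0.18, adjusted p = 0.0051), not called. The change of that difference between the tissues was 1.02 (SE 0.29, adjusted p = 0.00436). Its size lies at the threshold, and it fell below a size of 1 when any of naked mole-rat heart replicate 3, Damaraland heart replicates 2 or 3, naked mole-rat liver replicate 3 or Damaraland liver replicate 5 was left out.

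**Figure D2:**
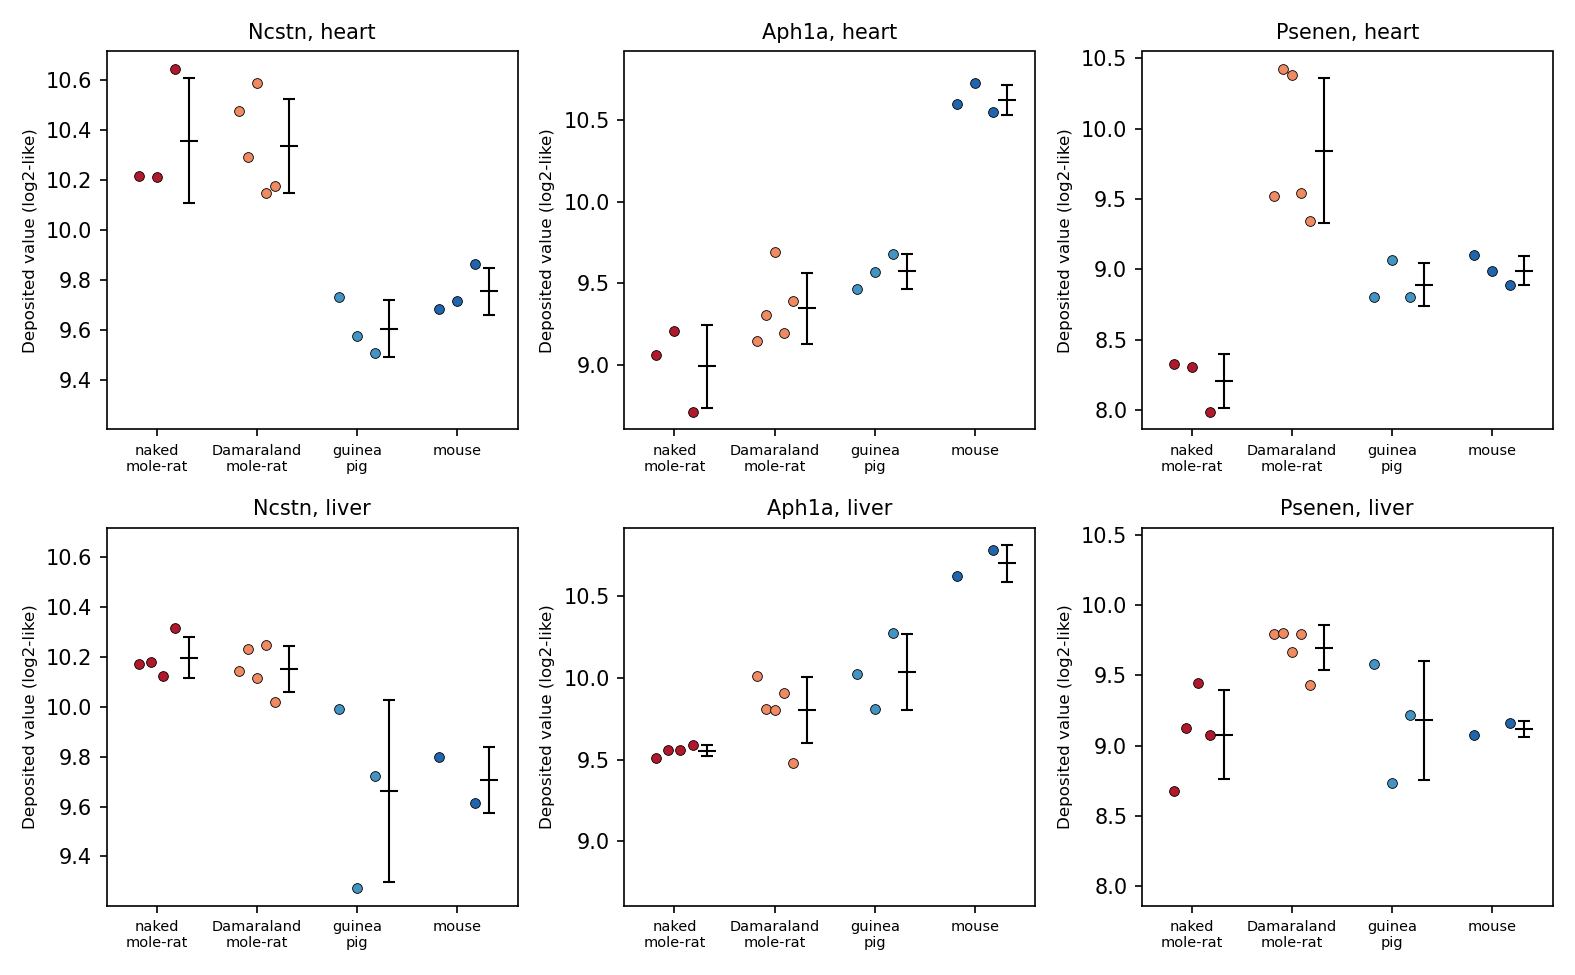
Deposited log2-like values of Ncstn, Aph1a and Psenen in each library, heart above and liver below, with the mean and SD of each species; the vertical range differs between genes. Mole-rat libraries lie above all outgroup libraries for Ncstn, mouse libraries lie above all others for Aph1a, and for Psenen the naked hearts (7.99 to 8.32) lie below the Damaraland hearts (9.35 to 10.43).

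App (ENSMUSG00000022892), the substrate, was the member called in most comparisons, with Psen2 not tested in liver between a mole-rat and an outgroup. In heart its values were 15.15, 15.32 and 14.89 in the naked mole-rat and 13.78, 14.23, 14.12, 14.01 and 14.97 in the Damaraland mole-rat. Guinea pig hearts were at 13.60, 13.92 and 14.01, and mouse hearts far lower at 11.17, 11.25 and 11.43. The naked mole-rat overlapped the Damaraland mole-rat through a single Damaraland heart, replicate 5, and the Damaraland mole-rat overlapped the guinea pig. The naked minus Damaraland difference was 0.90 (SE 0.22, adjusted p = 0.00235), under the size required, and it became 1.015 without naked mole-rat heart replicate 3 and 1.085 without Damaraland heart replicate 5. Mean scaled reads in heart were 35808 in the naked mole-rat, 19845 in the Damaraland mole-rat, 14696 in the guinea pig and 2420 in the mouse.

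The mole-rats exceeded the outgroups in App by 2.11 in heart (SE 0.17, adjusted p = 1.25e-08). The pairwise values show what that average holds: 3.84 (SE 0.25, adjusted p = 1.26e-09) for the naked mole-rat against the mouse and 2.94 (SE 0.22, adjusted p = 7.79e-09) for the Damaraland mole-rat against the mouse, but 1.28 (SE 0.25, adjusted p = 0.000326) and 0.38 (SE 0.22, adjusted p = 0.151) against the guinea pig. The guinea pig itself exceeded the mouse by 2.56 (SE 0.25, adjusted p = 2.17e-07).

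In liver App was 13.63, 13.52, 13.58 and 13.55 in the naked mole-rat, a range of about 0.1, and 12.02, 11.93, 11.78, 12.28 and 12.04 in the Damaraland mole-rat. Guinea pig livers were at 12.21, 11.58 and 11.98 and mouse livers at 10.09 and 10.47. All naked mole-rat livers lay above all other livers, and all mouse livers below. The naked mole-rat was higher than the Damaraland mole-rat by 1.56 (SE 0.15, adjusted p = 1.02e-07), than the guinea pig by 1.65 (SE 0.17, adjusted p = 2.82e-07) and than the mouse by 3.29 (SE 0.20, adjusted p = 2.71e-10). The Damaraland mole-rat and the guinea pig overlapped and differed by 0.09 (95% interval -0.26 to 0.44). The average of the mole-rats was 1.69 above that of the outgroups (SE 0.13, adjusted p = 4.64e-09).

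Bace1 (ENSMUSG00000032086), the beta-secretase, was low in the Damaraland mole-rat. Its heart values there were 7.97, 8.0, 7.72, 8.16 and 7.69, against 9.74, 9.59 and 10.14 in the naked mole-rat. Guinea pig hearts were at 10.14, 10.15 and 10.25 and mouse hearts at 10.40, 10.49 and 10.19. Every Damaraland heart lay below every other heart. The naked mole-rat was higher than the Damaraland mole-rat by 1.91 (SE 0.16, adjusted p = 2.39e-08), or 836 against 167 mean scaled reads. The Damaraland mole-rat was lower than the guinea pig (-2.27, SE 0.16, adjusted p = 2.91e-09) and the mouse (-2.45, SE 0.16, adjusted p = 8.86e-10). The naked mole-rat was not called against either outgroup (-0.36, adjusted p = 0.0876, and -0.54, adjusted p = 0.013). The called average of -1.41 for the mole-rats against the outgroups (SE 0.12, adjusted p = 2.25e-08) therefore came with a called difference against the outgroups in 1 mole-rat species of 2.

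In liver Bace1 was 10.10, 10.02, 9.94 and 9.96 in the naked mole-rat, 8.18, 8.62, 8.45, 8.87 and 9.11 in the Damaraland mole-rat and 10.37, 10.17 and 10.31 in the guinea pig. The mouse livers were far apart, at 9.93 and 8.94. Damaraland livers were below all naked mole-rat and guinea pig livers and overlapped the mouse. The Damaraland mole-rat was lower than the naked mole-rat (1.36 as naked minus Damaraland, SE 0.20, adjusted p = 1.00e-05) and the guinea pig (-1.64, SE 0.21, adjusted p = 3.31e-06). Against the mouse it was at -0.79 (SE 0.24, adjusted p = 0.00966), not called, and it was -1.28 without mouse liver replicate 2 and -0.30 without mouse liver replicate 1. The naked mole-rat minus the mouse was 0.57 (SE 0.25, adjusted p = 0.0585), 1.06 without mouse liver replicate 1 and 0.08 without replicate 2. The guinea pig minus the mouse was 0.85 (SE 0.27, adjusted p = 0.0114), 1.34 without mouse liver replicate 1 and 0.36 without replicate 2.

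Bace2 (ENSMUSG00000040605) encodes a relative of BACE1 that can cut APP within the amyloid-beta stretch. Its heart reads were few in the naked mole-rat, with a mean of 32.1 scaled reads and 6 reads in replicate 3. Heart values were 6.54, 6.82 and 6.40 in the naked mole-rat, 7.39, 8.23, 7.47, 7.58 and 8.67 in the Damaraland mole-rat, 7.69, 7.99 and 8.01 in the guinea pig and 7.86, 6.79 and 7.36 in the mouse. Naked mole-rat hearts lay below all Damaraland and guinea pig hearts and overlapped the mouse. The differences were -1.28 against the Damaraland mole-rat (SE 0.28, adjusted p = 0.000721) and -1.31 against the guinea pig (SE 0.31, adjusted p = 0.00155). Against the mouse the difference was -0.75 (SE 0.31, adjusted p = 0.0421), and it was -1.02 without mouse heart replicate 2 and -0.49 without mouse heart replicate 1. The deposited scale compresses such low values, and voom on the recovered reads gave -2.06 and -2.23.

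In liver Bace2 was highest in the Damaraland mole-rat, at 8.46, 8.03, 8.06, 8.11 and 8.16. Naked mole-rat livers were at 6.98, 7.09, 6.82 and 7.05, guinea pig livers at 6.70, 6.33 and 6.98, and the mouse livers at 6.99 and 7.81. All Damaraland livers lay above all other livers. The naked mole-rat was lower than the Damaraland mole-rat by a difference of -1.18 (SE 0.18, adjusted p = 1.53e-05), and the Damaraland mole-rat exceeded the guinea pig by 1.49 (SE 0.19, adjusted p = 2.94e-06). It exceeded the mouse by 0.77 (SE 0.22, adjusted p = 0.006), not called, by 1.18 without mouse liver replicate 2 and by 0.35 without mouse liver replicate 1. Guinea pig minus mouse was -0.73 (SE 0.24, adjusted p = 0.0155), -1.14 without mouse liver replicate 1, -0.32 without mouse liver replicate 2 and -1.04 with voom. The Damaraland mole-rat thus had less Bace1 and more Bace2 than the naked mole-rat in both tissues, all 4 differences being called.

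Adam10 (ENSMUSG00000054693), the main alpha-secretase, was lowest in naked mole-rat liver. Its liver values were 8.42, 8.21, 8.49 and 8.31 there, 9.84, 9.83, 9.71, 9.73 and 9.46 in the Damaraland mole-rat, 10.18, 10.08 and 10.20 in the guinea pig and 9.50 and 9.35 in the mouse. All naked mole-rat livers lay below all other livers. The naked mole-rat was lower than the Damaraland mole-rat (-1.35, SE 0.12, adjusted p = 3.44e-08), the guinea pig (-1.80, SE 0.14, adjusted p = 5.55e-09) and the mouse (-1.07, SE 0.16, adjusted p = 1.51e-05). The last fell under the size required with quantile normalisation (-0.97) and without mouse liver replicate 1 (-0.99). Mean scaled reads were 291 in naked mole-rat liver against 804, 1101 and 650.

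In heart Adam10 was alike in the mole-rats, at 9.45, 9.48 and 9.58 in the naked and 9.16, 9.36, 9.55, 9.41 and 9.99 in the Damaraland mole-rat. Guinea pig hearts were at 10.02, 10.14 and 10.13 and mouse hearts at 10.19, 10.14 and 10.24. Every mole-rat heart lay below every outgroup heart, by an average of -0.65 (SE 0.12, adjusted p = 0.000177), which is under the size required. The naked minus Damaraland difference was 0.01 in heart (95% interval -0.33 to 0.35). Its change to liver was -1.36 (SE 0.19, adjusted p = 1.07e-06).

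**Figure D3:**
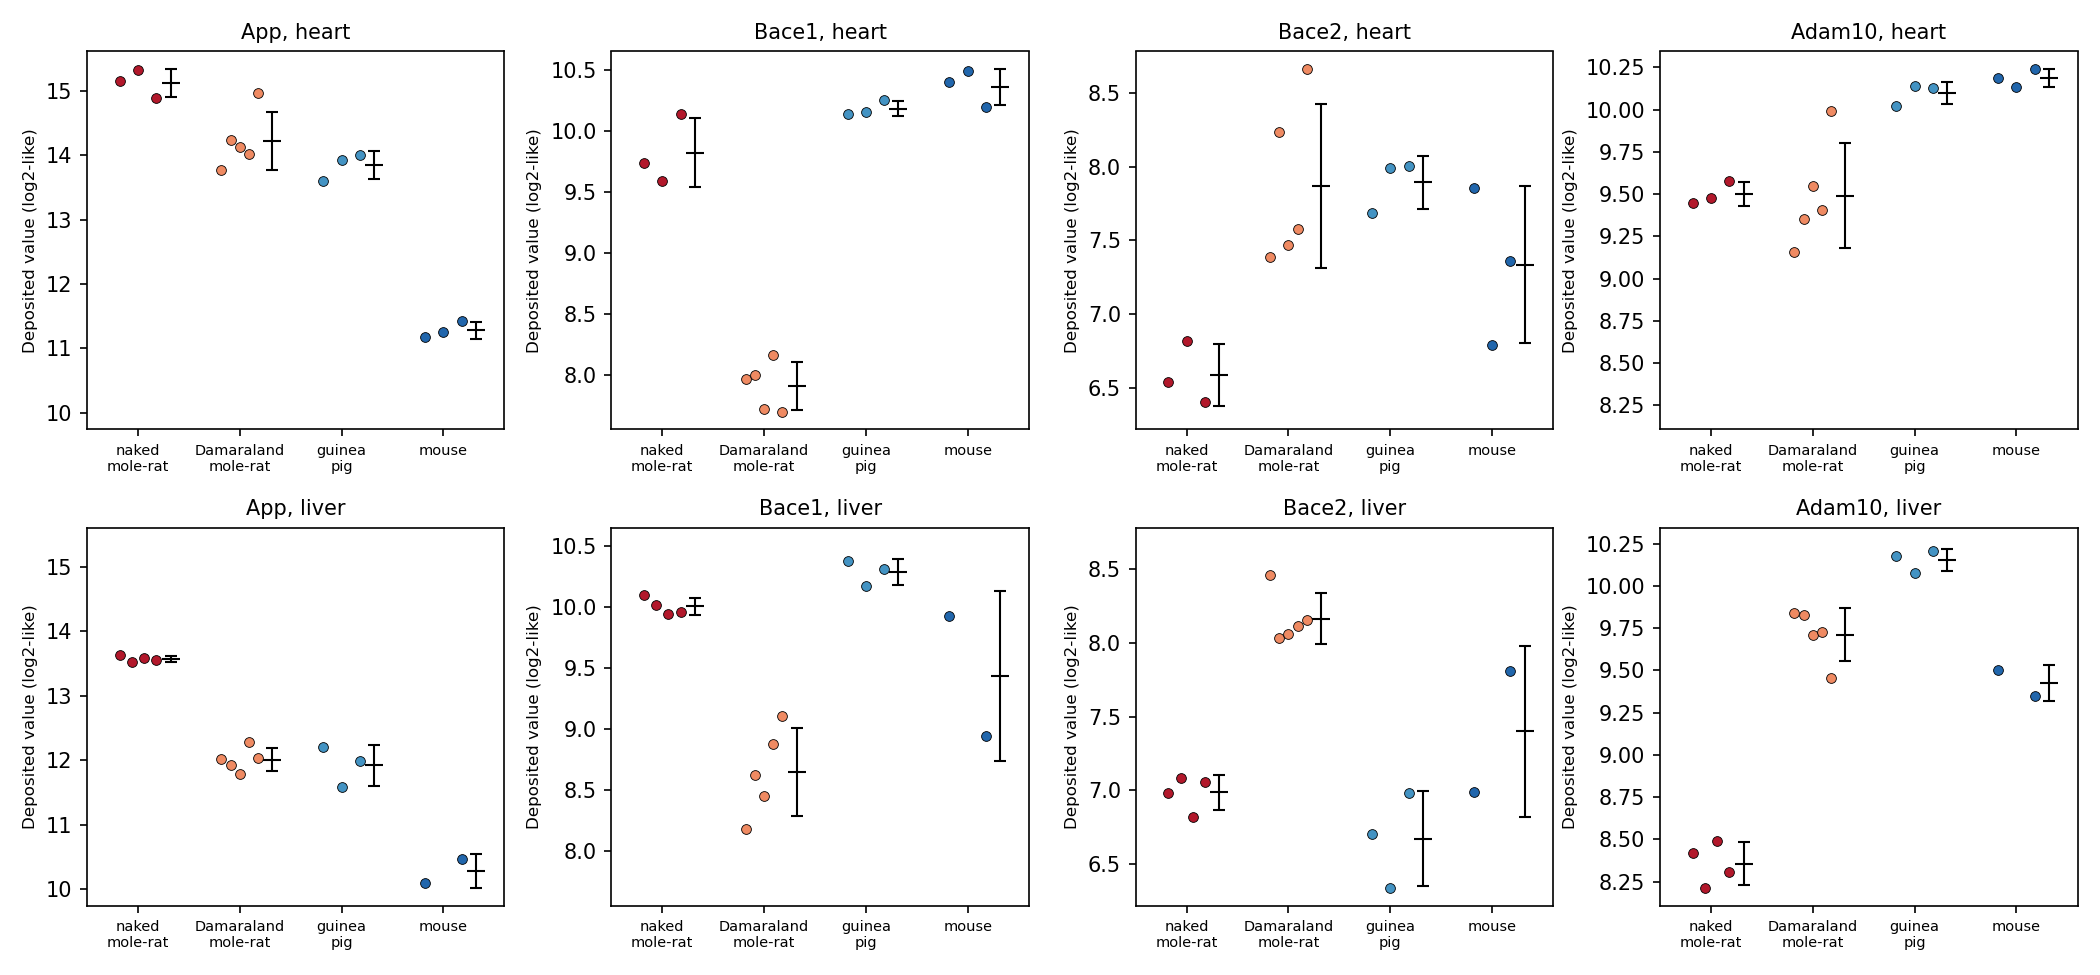
Deposited log2-like values of App, Bace1, Bace2 and Adam10 in each library, heart above and liver below, with the mean and SD of each species; the vertical range differs between genes. Naked mole-rat livers are highest for App and lowest for Adam10, and Damaraland hearts are lowest for Bace1 (7.69 to 8.16).

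Counted over the members, 2 of 8 were called in heart for the mole-rats against the outgroups, App higher and Bace1 lower, where 23.4% of all 10667 genes tested were called. By adjusted p alone 6 of 8 passed, against 67.3% of all genes. In liver 1 of 7 was called, App, against 28.1% of 10887 genes, Psen2 being left out, and 6 of 7 passed by adjusted p alone, against 68.0%. The median difference of the members was -0.15 in heart and 0.24 in liver, beside -0.01 and 0.02 over all genes tested. Neither count stood far above its background.

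Between the mole-rats, 3 of 8 members were called in heart (Bace1 higher in the naked mole-rat, Psenen and Bace2 lower), with 29.4% of all genes called. In liver 5 of 8 were called (App and Bace1 higher, Psen2, Bace2 and Adam10 lower), with 34.2% of all genes called. By adjusted p alone, 4 of 8 passed in heart and 6 of 8 in liver, against 62.4% and 67.7% of all genes.

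Against the guinea pig, the naked mole-rat had 2 of 8 members called in heart (App and Bace2; 33.0% of all genes) and 2 of 7 in liver (App and Adam10; 37.8%). The Damaraland mole-rat had 1 of 8 in heart (Bace1; 29.7%) and 2 of 7 in liver (Bace1 and Bace2; 36.2%). Against the mouse, the naked mole-rat had 3 of 8 in heart (Psen2, Aph1a and App; 38.2%) and 3 of 7 in liver (Aph1a, App and Adam10; 41.2%). The Damaraland mole-rat had 4 of 8 in heart (Psen2, Aph1a, App and Bace1; 34.9%) and 1 of 7 in liver (App; 39.2%). The guinea pig against the mouse had 3 of 8 in heart (Psen2, Aph1a and App; 32.1%) and 2 of 8 in liver (Psen2 and App; 37.2%). These comparisons share libraries, so their counts are not independent.

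Without the size threshold the members' counts are read against larger shares of all genes. By adjusted p alone, the naked mole-rat differed from the guinea pig in 7 of 8 members in heart (60.8% of all genes) and 4 of 7 in liver (65.5%), and from the mouse in 8 of 8 (65.2%) and 4 of 7 (64.2%). The Damaraland mole-rat differed from the guinea pig in 4 of 8 (61.9%) and 5 of 7 (65.6%), and from the mouse in 7 of 8 (66.6%) and 6 of 7 (63.6%). The guinea pig differed from the mouse in 3 of 8 (59.6%) and 6 of 8 (58.8%).

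**Figure D4:**
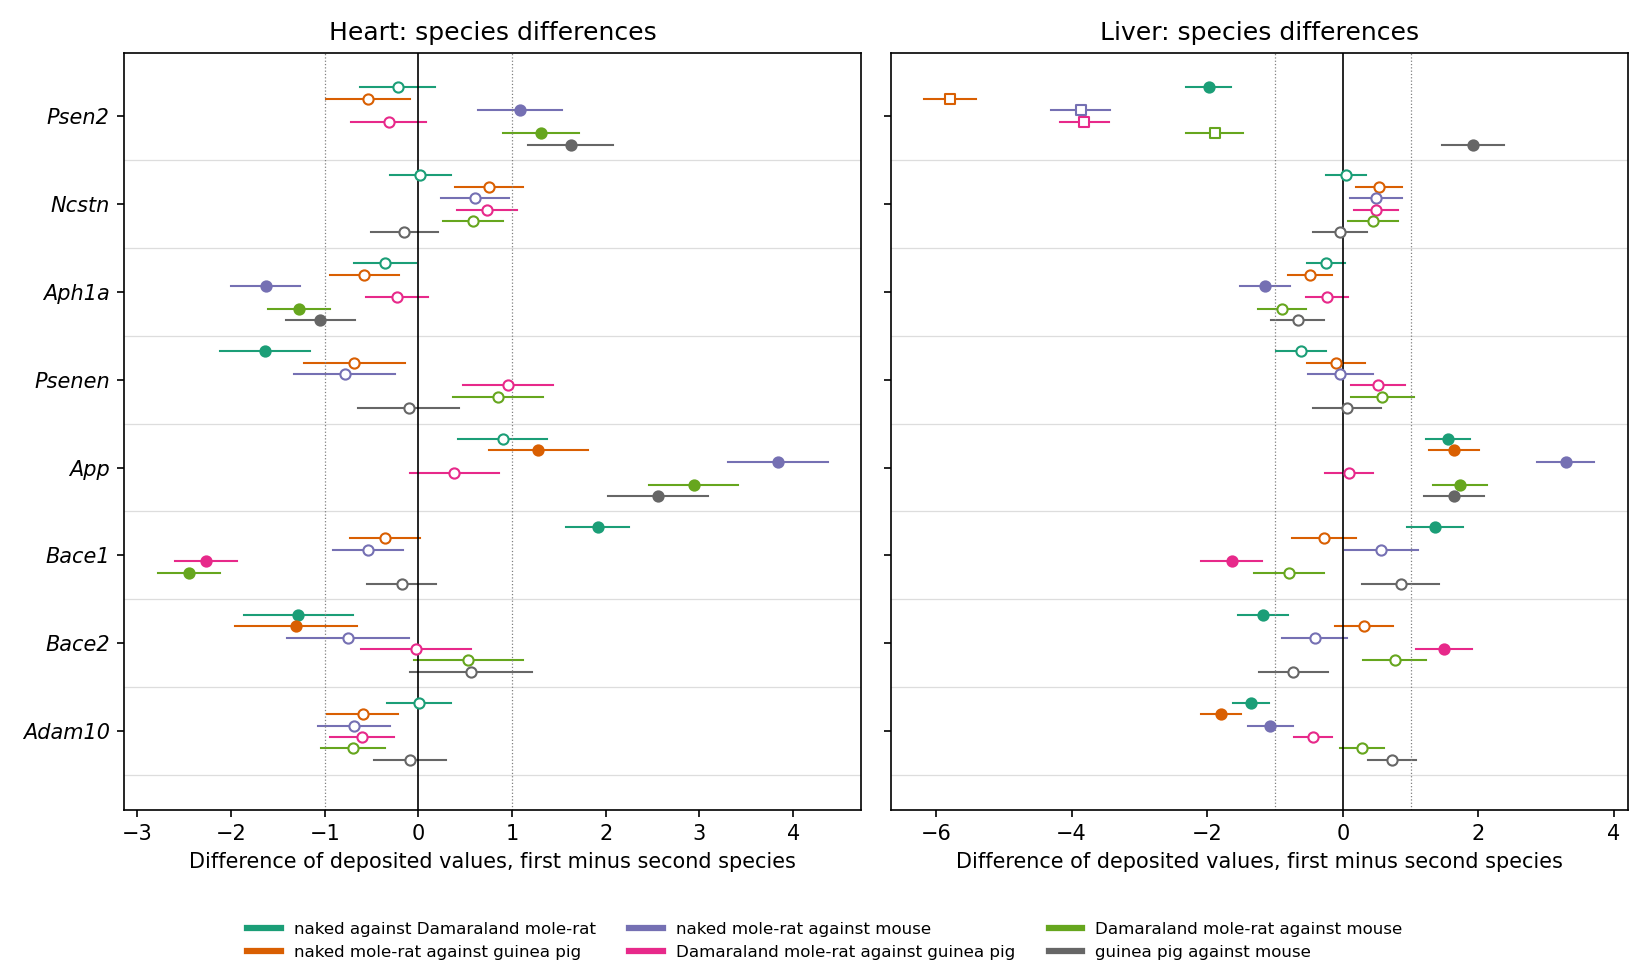
Differences of deposited values (first minus second species) for the 8 members in heart (left) and liver (right), with 95% intervals; the 6 colours are the 6 pairs of species and the dotted lines mark a size of 1. Filled circles are called, open circles are not, and open squares are the liver differences of Psen2 given without a test. App lies to the right in all comparisons with the mouse, and Bace1 lies to the left wherever the Damaraland mole-rat is set against an outgroup.

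The species difference changed between the tissues for some members. For the mole-rats against the outgroups, 0 of 7 were called, with 22.6% of 10109 genes called (limma). By unadjusted and by adjusted p alone, 2 of 7 passed (53.8% of all genes by adjusted p), Bace1 (0.88, SE 0.20, adjusted p = 0.000668) and Bace2 (0.91, SE 0.26, adjusted p = 0.00457). With voom both were called, at 1.08 and 1.33. Bace2 was also called without Damaraland heart replicate 5 (1.01), mouse heart replicate 2 (1.06) or mouse liver replicate 2 (1.13), and Bace1 without mouse liver replicate 1 (1.12). For the naked against the Damaraland mole-rat 3 of 8 were called, Psen2, Psenen and Adam10 as given above, with 31.3% of all genes called, and 4 of 8 passed by adjusted p alone (51.9%). For the guinea pig against the mouse 2 of 8 were called (32.1% of all genes) and 4 of 8 passed by adjusted p alone (42.8%). The called members were Bace1 at 1.04 (SE 0.32, adjusted p = 0.00851) and Bace2 at -1.31 (SE 0.41, adjusted p = 0.0106). Neither was called without mouse liver replicate 2 (0.54 and -0.88), nor without mouse heart replicate 2 (0.97 and -1.01), and Bace1 stood at 0.998 without guinea pig liver replicate 1. App was at -0.92 there (SE 0.33, adjusted p = 0.0259), and was called without guinea pig heart replicate 1 (-1.03), guinea pig liver replicate 1 (-1.06) or mouse liver replicate 1 (-1.11). The heart and liver tables were normalised separately, so only such differences of differences were compared across them.

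A wider set of genes of this pathway, 80 besides the members in 9 lists written by function, was measured for 73. Of the 70 tested in heart, 4 were called higher and 8 lower in the mole-rats against the outgroups (17.1%, against 23.4% of all genes). Of the 69 tested in liver, 12 were called higher and 10 lower (31.9%, against 28.1%). The median difference was -0.09 in heart and 0.11 in liver. These lists were written with results of the study known, and their shares lay near the background.

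Besides the members, Gsap, a protein that activates gamma-secretase, was the modulator called in heart (1 of 4 tested), higher in the mole-rats by 1.12 (SE 0.12, adjusted p = 2.88e-07). Its heart mean was 8.66 ± 0.31 (SD, n = 3) in the naked mole-rat and 6.34 to 6.83 in the other species, so 1 mole-rat species stood apart. In liver Gsap was lower in the naked than in the Damaraland mole-rat by -1.52 (SE 0.20, adjusted p = 4.00e-06), the opposite direction to heart, where the difference was 1.91 (SE 0.15, adjusted p = 2.03e-08). The change of Gsap between tissues was not tested. Of the presenilin-related aspartyl proteases, none of 3 was called in heart, and Sppl2b, a signal peptide peptidase-like protease, was called in liver, higher by 1.77 (SE 0.15, adjusted p = 1.31e-08).

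In the APP family, Aplp1 was higher in mole-rat hearts by 1.69 (SE 0.12, adjusted p = 3.43e-09). Its mouse hearts were at 6.75 ± 0.11 (SD, n = 3), while the guinea pig (9.36 ± 0.22, n = 3) was close to the Damaraland mole-rat (9.39 ± 0.27, n = 5). Aplp1 resembled App in that the mouse hearts stood lowest and the naked mole-rat hearts had the highest mean. The likeness held only in part in liver, where both genes were called higher in the guinea pig than in the mouse. In liver Aplp1 was called lower in each mole-rat species against the guinea pig, where App was higher in the naked mole-rat by 1.65. The other relative, Aplp2, was at -0.70 in heart (adjusted p = 0.000374) and 0.05 in liver (adjusted p = 0.811), neither called.

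Of 10 genes of alpha-secretases and their regulators tested besides Adam10, 1 was called lower in heart, the ADAM10 partner Tspan5 at -1.09 (SE 0.16, adjusted p = 1.14e-05). Tspan5 was not called lower in naked mole-rat hearts against mouse hearts. In liver 3 of 10 were higher, led by the metalloprotease inhibitor Timp3 at 1.86 (SE 0.12, adjusted p = 6.32e-10). A further 2 were lower, led by Rhbdf2, a carrier of ADAM17, at -1.46 (SE 0.13, adjusted p = 1.98e-08), the other being the alpha-secretase Adam17 itself at -1.05 (SE 0.12, adjusted p = 9.35e-07).

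Of 23 adaptor and trafficking genes tested in heart, 5 were lower and none higher in the mole-rats, led by the endosomal sorting gene Snx27 at -1.48 (SE 0.12, adjusted p = 1.84e-08). Snx27 was also lower in liver, at -1.64 (SE 0.13, adjusted p = 8.57e-09), so it was called in both tissues. In liver 3 of 22 adaptor and trafficking genes were higher and 4 lower. Sorl1, a sorting receptor for APP, led the former at 2.38 (SE 0.11, adjusted p = 1.07e-11), but guinea pig livers (12.57 ± 0.29, n = 3) lay above both mole-rats (11.82 and 12.23), and the mouse livers were at 6.72 ± 0.09 (n = 2). Rtn4, a reticulon, led the latter at -2.58 (SE 0.13, adjusted p = 3.24e-11), with 7.73 and 7.59 in the mole-rats against 10.19 and 10.28 in the guinea pig and the mouse.

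Of 11 genes of amyloid-beta clearance, Lrp1, an endocytic receptor, was higher in mole-rat hearts by 1.15 (SE 0.16, adjusted p = 6.31e-06), and Ctsd, a lysosomal protease, was lower by a difference of -1.03 (SE 0.15, adjusted p = 1.78e-05). The naked mole-rat had the lowest Ctsd mean in heart, at 11.87 ± 0.38 (SD, n = 3), with the other species at 13.90 to 14.36. In liver 2 of 11 were higher, led by the chaperone Clu at 1.29 (SE 0.19, adjusted p = 1.11e-05), and 2 lower, led by Mme at -2.73 (SE 0.15, adjusted p = 7.53e-11). Mme encodes neprilysin, a peptidase that degrades amyloid-beta, and its liver means were 5.05 in the Damaraland mole-rat against 11.38, 11.66 and 10.22 in the naked mole-rat, guinea pig and mouse. The naked mole-rat exceeded the Damaraland mole-rat in Mme by 6.33 in liver (SE 0.18, adjusted p = 1.03e-14) and by 2.56 in heart (SE 0.13, adjusted p = 6.74e-11). The Damaraland liver mean of Mme lies close to the liver value of 0 reads (4.29), so the liver difference rests on low values in that species.

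Among 16 other substrates of gamma-secretase tested in each tissue, 1 was higher and 1 lower in heart. They were the receptor phosphatase Ptprk at 2.40 (SE 0.15, adjusted p = 5.31e-10) and the ephrin Efnb2 at -1.72 (SE 0.17, adjusted p = 1.98e-07). Ptprk was not called higher in Damaraland mole-rat hearts against guinea pig hearts. In liver 3 were higher, led by the growth factor Nrg1 at 2.37 (SE 0.17, adjusted p = 2.63e-09), and 2 lower, led by the adhesion receptor Cd44 at -1.80 (SE 0.15, adjusted p = 1.83e-08). Cd44 was not called lower in naked mole-rat livers against mouse livers.

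**Figure D5:**
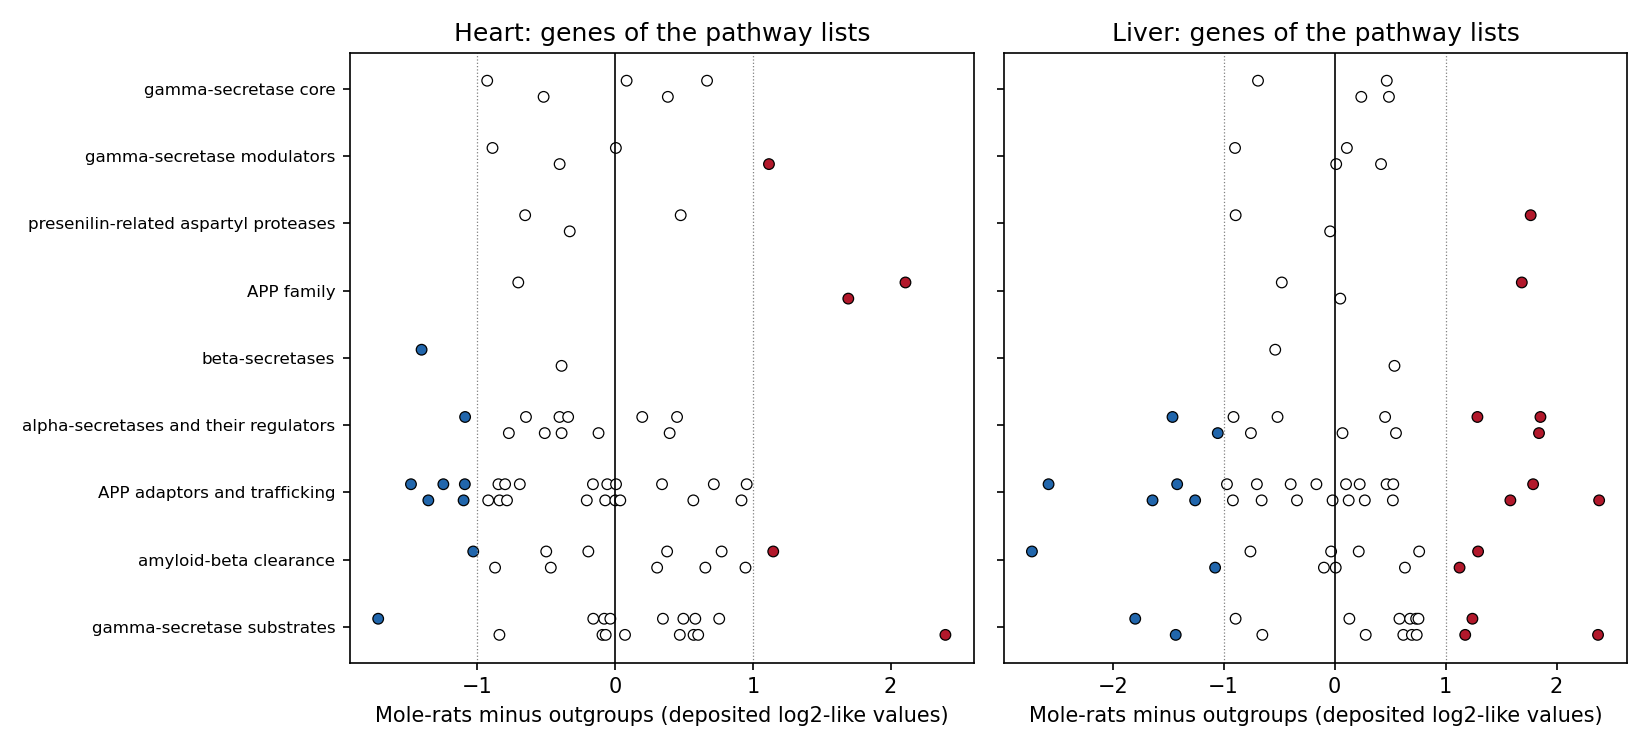
Difference of deposited values, mole-rats minus outgroups, for each gene tested of the 9 pathway lists in heart (left) and liver (right), members included except Psen2 in liver. Red points are called higher, blue points called lower and open points not called; dotted lines mark a size of 1. Called genes lie on both sides in both tissues.

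The genes whose pattern over the 14 libraries of a tissue was most like that of Psen2 were found by the root mean square distance between values centred on each gene's mean. In heart they were Pkp2 at 0.192, Ddx47 at 0.197 and Bdh2 at 0.218, with a median of 0.849 over all genes tested. In liver they were Lrp3 at 0.459, Slc12a2 at 0.5 and Tmem86b at 0.589, with a median of 2.22. Lrp3 had liver means of 5.03 in the naked mole-rat, 7.31 in the Damaraland mole-rat, 8.97 in the mouse and 10.17 in the guinea pig, the species order of Psen2. The heart and liver lists had no gene in common. This likeness is a description over libraries that share species and normalisation.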

How the data were processed

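The authors deposited 1 table per tissue, whose values had been variance-stabilised and lie on a log2-like scale. Per the submitters' processing notes, cutadapt, Salmon and DESeq2 were used, with the build GRCm38; indexes for the other species, ortholog assignment and any correction for gene length between species are not given in the sources used here. Columns of other series (15 in heart, 11 in liver) were not used. Of 13928 genes, 13921 were matched to a symbol. Inverting the transform gave whole reads for 100% of values (tolerance 0.001).

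Genes with a mean of at least 1 above the value of 0 reads were tested (10667 in heart, 10887 in liver) with limma 3.58.1 in R 4.3.3, with 1 coefficient per species, a variance trend and Benjamini-Hochberg adjustment. The tissues were compared for 10109 genes with the animal as a random block (correlation 0.0505). The code was tested on simulated reads, drawn with the same spread for all genes. There a 2-fold difference of mole-rats against outgroups was called for 18% of changed genes in heart and 23% in liver. For a 4-fold difference these shares were 91% and 98%. A missing call therefore does not show that a difference is under 2-fold. Alternatives covered the size threshold, filter, scaling, variance model, voom on recovered reads, blocks and leaving out each library.

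The members, lists and tests were chosen with earlier results of these data known. The text names all 8 members, from each list the non-member with the largest called difference in each direction of mole-rats against outgroups, and the 3 genes most like Psen2 per tissue. Aplp2 and Adam17, and all other comparisons of named non-members, were added after their values were seen. A gene of the lists is not reported here.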

Additional observations from a re-analysis of the deposited data

Results flagged for a closer look

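Among the 24 groups of 4 or 5 libraries of a member, 3 held a library far from the others, where chance gives about 1 in 20. Psen2 in naked mole-rat liver replicate 3 was 7.02, against 7.56 to 7.60 in the other 3. Psen2 in Damaraland liver replicate 1 was 9.80, against 9.27 to 9.38, and Bace2 in the same library was 8.46, against 8.03 to 8.16.

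The difference between the mole-rats changed between heart and liver by -1.758 for Psen2, by 1.019 for Psenen and by -1.358 for Adam10, each called in the test of the change itself. The difference between guinea pig and mouse changed by 1.043 for Bace1 and by -1.309 for Bace2, again by that test.

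Some species differences had every library on opposite sides in the 2 tissues, without a test of the change. This was looked for in the members only, and the share of all genes with such a pattern was not computed. Psen2 in the naked mole-rat minus the mouse was 1.084 in heart and -3.868 in liver. Psen2 in the Damaraland mole-rat minus the mouse was 1.307 in heart and -1.89 in liver. Bace1 in the naked mole-rat minus the mouse was -0.5385 in heart and 0.5691 in liver, where the adjusted p was 0.0585 and the value fell to 0.0764 without mouse liver replicate 2.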

How the results depend on the processing

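Without a size threshold, the members passing rose in heart to 6 for the mole-rats against the outgroups and 4 between the mole-rats. In heart they also rose to 7 for the naked mole-rat against the guinea pig and 8 against the mouse. For the Damaraland mole-rat they rose there to 4 against the guinea pig and 7 against the mouse. In liver they rose to 6 for the mole-rats against the outgroups and 6 between the mole-rats. There they rose to 4 for the naked mole-rat against the guinea pig and 4 against the mouse. They also rose in liver to 5 for the Damaraland mole-rat against the guinea pig, 6 against the mouse and 6 for the guinea pig against the mouse. For liver minus heart they rose to 2 for the mole-rats against the outgroups, 4 between the mole-rats and 4 for the guinea pig against the mouse. A test against a difference of 1 left 0 for the naked mole-rat against the guinea pig and 2 for the Damaraland mole-rat against the mouse in heart. In liver it left 3 between the mole-rats, 1 for the naked mole-rat against the mouse and 1 for the Damaraland mole-rat against the guinea pig. Voom gave 2 for the Damaraland mole-rat against the guinea pig in heart and 2 for the mole-rats against the outgroups in liver minus heart. It also added Aph1a in heart for the mole-rats against the outgroups (3 called) and Bace2 in liver for the guinea pig against the mouse (3 called), and moved the described liver difference of Psen2 between mole-rats and outgroups to -4.08.

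With the replicate block, the Damaraland mole-rat against the guinea pig in heart gave 2 members, Psenen being added at 1.22; the block also added Psenen for the Damaraland mole-rat against the mouse (1.12) and App between the mole-rats (1.08), both in heart, and changed no other call. Within a tissue each library is a separate animal, so the numbers do not pair animals. Deviations of the same-numbered libraries of different species correlated at -0.261 to 0.301 among hearts (median -0.0175, other pairs -0.0095). Among livers they correlated at -0.232 to 0.15 (median 0.0265, other pairs -0.00227). Of the libraries, 6 of 12 hearts and 2 of 13 livers correlated best with their own number. The count expected without a link was not computed, and a shared effect of the replicate number was not tested. Leaving out each library gave 1 to 2 for the Damaraland mole-rat against the guinea pig in heart. It also gave in heart 3 to 4 between the mole-rats, 3 to 4 for the naked mole-rat against the mouse and 2 to 3 for the guinea pig against the mouse. In liver minus heart it gave 0 to 1 for the mole-rats against the outgroups, 2 to 3 between the mole-rats and 0 to 3 for the guinea pig against the mouse. In liver, calls changed only when a mouse liver was left out, with the sizes given above for Bace1, Bace2 and Adam10. Leaving out a mouse liver leaves 1, assumed to vary like the other groups, and the tissue fits without a library kept the correlation estimated on all 28. No called difference reversed under any alternative run. A further 13 values changed sign while uncalled in both fits, none above 0.163 in size.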

Other observations

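Of the 4 Damaraland mole-rats that gave both tissues, the animal behind heart replicate 5 and liver replicate 1 was the extreme of the 5 Damaraland libraries, on the same side in both tissues, for 4 of the 8 members. It was highest for Psen2, Bace2 and Adam10 and lowest for Bace1. Over the 10109 genes tested in both tissues this animal was such an extreme for 18.5%, against 3.5% to 8.2% for the other 3, which had 0 or 1 such member each. This count was chosen after the values were seen and has no test.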
